A study of Homo sapiens with 10 samples.

Results

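Semaphorins are guidance ligands, and plexins and neuropilins are their receptors. The genes described here were 10 members of these families, the secreted class 3 semaphorins SEMA3A, SEMA3C, SEMA3D and SEMA3E, the transmembrane semaphorins SEMA5A, SEMA6A and SEMA6D, the receptors PLXNA2 and PLXNA4 and the co-receptor NRP1. They were chosen by name, with earlier results of these data known, out of 19974 protein-coding genes of chromosomes 1 to 22 and X. Their places among other genes are therefore descriptions and were not tested. A peak was counted for a gene when it overlapped the RefSeq span of the gene on GRCh38, widened by 2 kb on each side, by at least 1 bp. The genes spanned 131 kb (SEMA6A) to 590 kb (SEMA6D), and the 10 widened spans covered 3.43 Mb in all. Their peaks were set beside those of all protein-coding genes and of the 2206 protein-coding genes with a span in the same range, since long genes hold more peaks.

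The mark measured was H4R3me2s, in which arginine 3 of histone H4 carries 2 methyl groups in symmetric form, by chromatin immunoprecipitation and sequencing of the human neuroblastoma line SH-SY5Y, which can be driven towards a neuronal state. In the BDNF+Dox group (n = 3), cells were differentiated over 10 days, first under 10 µM retinoic acid (6 days) and then under the neurotrophin BDNF at 50 ng/ml (4 days), and doxycycline at 1 µg/ml induced α-synuclein through a Tet-on system for 3 days. The BDNF group (n = 3) was differentiated in the same way without doxycycline, and the Naive group (n = 3) was not differentiated. Serum changed as well, since the growth medium held 10% fetal calf serum, the retinoic acid medium 3% and the BDNF medium none, so serum, retinoic acid and BDNF cannot be told apart between the differentiated groups and Naive. All cells were grown with 300 µg/ml zeocin, and 1 Input library of untreated cells without antibody was the background of all 9 libraries. Doxycycline without α-synuclein was not analysed here, so the drug and the protein cannot be told apart, and the labels do not say whether the BDNF and Naive cells carry the Tet-on construct. The labels do not say whether replicates were separate cultures, so the p-values measure the spread between these libraries, which may be technical. The 9 libraries kept 17164402 to 18928589 reads and the Input 17074000, per the file headers. The libraries held 6330 to 10864 peaks in BDNF+Dox, 4536 to 6888 in BDNF and 5901 to 12207 in Naive. Peak lists carry no expression, so the neuronal state of the cells was not checked against marker genes.

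Semaphorins steer growing axons by attraction or repulsion. A class 3 semaphorin usually binds a neuropilin, which passes the signal on through an A-type plexin, whereas class 5 and class 6 semaphorins are anchored in the membrane and can bind plexins directly. Plexins act on small GTPases and thereby on the cytoskeleton of the growth cone. Many of the pairings named below were worked out in mice and chicks. H4R3me2s is written mainly by the arginine methyltransferase PRMT5 and is mostly known as a mark of repressed genes.

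No peak of any list lay in the start-site windows at hand for these genes, and 3 of the windows are printed to show the kinds of sequence in which none was called. Each surrounds an annotated start inside the gene, not its outermost one, and runs from 250 bases before to 50 bases after that start, taken from RefSeq on GRCh38.p14, and capitals mark each CG, the letters that were searched (CG reads the same on both strands). The PLXNA4 window (chr7:132576421-132576720, minus strand, 30 CG) was the one closest to a library peak. The SEMA6D window (chr15:47717255-47717554, plus strand, 31 CG) belongs to the gene with the most peaks in the comparison of merged groups. The SEMA3E window (chr7:83641382-83641681, minus strand, 1 CG) had the fewest CG of all 11.
PLXNA4: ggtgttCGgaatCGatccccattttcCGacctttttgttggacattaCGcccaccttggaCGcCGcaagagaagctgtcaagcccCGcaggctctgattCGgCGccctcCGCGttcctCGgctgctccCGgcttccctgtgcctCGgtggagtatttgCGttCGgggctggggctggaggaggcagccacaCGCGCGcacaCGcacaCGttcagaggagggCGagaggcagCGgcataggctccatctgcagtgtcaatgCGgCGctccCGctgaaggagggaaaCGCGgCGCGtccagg
SEMA6D: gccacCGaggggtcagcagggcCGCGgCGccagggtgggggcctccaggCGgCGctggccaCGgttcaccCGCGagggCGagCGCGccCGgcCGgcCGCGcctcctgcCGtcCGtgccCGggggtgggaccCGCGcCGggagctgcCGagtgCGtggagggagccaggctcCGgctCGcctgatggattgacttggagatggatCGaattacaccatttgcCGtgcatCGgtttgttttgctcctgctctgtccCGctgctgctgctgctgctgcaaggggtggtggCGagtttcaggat
SEMA3E: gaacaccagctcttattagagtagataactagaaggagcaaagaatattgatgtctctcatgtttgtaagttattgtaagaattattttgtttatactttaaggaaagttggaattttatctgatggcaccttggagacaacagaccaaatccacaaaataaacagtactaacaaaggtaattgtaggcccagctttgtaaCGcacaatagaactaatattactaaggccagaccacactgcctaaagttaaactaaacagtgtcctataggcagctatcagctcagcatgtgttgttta

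The table held 11 windows for 7 of the genes, and SEMA3A, SEMA6A and NRP1 had no entry. The windows of the 7 genes had a median of 29 CG and 64.3% G and C, against 21 CG and 62.3% in the 22132 windows of all protein-coding genes, of which 98.1% held at least 1 CG. A library peak overlapped 0 of the 11 windows and 29 of the 22132 (0.131%), so finding none in 11 windows is no departure from the background. The library peak nearest to a start lay 4.46 kb from the internal start of PLXNA4, in BDNF+Dox replicate 2. Of the narrow peaks of merged BDNF+Dox called over merged BDNF, the nearest lay 3.79 kb from an internal start of SEMA3D, 7.20 kb from the outermost start of PLXNA2 and 10.3 kb from an internal start of SEMA6D.

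Across the 9 libraries called against the Input, the 10 genes held 104 peaks, and every gene had a peak in at least 1 library. The same was true of 37.3% of all protein-coding genes and of 93% of those in the same range of span, so the presence of a peak was near the background of genes of this length.

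SEMA3A, which encodes a secreted repellent that collapses growth cones, held 39 of the 104 peaks. Its counts were 7, 4 and 6 peaks in the BDNF+Dox libraries (replicates 1, 2 and 3 here and below), 1, 3 and 6 in the BDNF libraries, and 8, 2 and 2 in the Naive libraries. The highest Naive library exceeded every BDNF+Dox library, and the groups overlapped. This gave a mean of 5.67 ± 1.53 peaks for BDNF+Dox, 3.33 ± 2.52 for BDNF and 4.00 ± 3.46 for Naive (SD, n = 3 each). The differences between these means, at most 2.33 peaks, were smaller than the SD of the BDNF and of the Naive libraries, with an exact permutation p of 0.55 over the 3 groups and an adjusted p of 1.

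The other class 3 genes held fewer peaks. SEMA3D, a secreted guidance ligand, had 0, 1 and 1 peaks in BDNF+Dox, 1, 0 and 4 in BDNF and 2, 1 and 1 in Naive. BDNF replicate 3 alone carried 4 of its 11 peaks, and the groups overlapped. SEMA3E, a ligand that can bind PLXND1 without a neuropilin, had 0, 0 and 1 peaks in BDNF+Dox, 0, 0 and 2 in BDNF and 1, 0 and 1 in Naive. SEMA3C, a secreted ligand for both neuropilins, had 3 peaks in all, 1 in each group, in BDNF+Dox replicate 3, BDNF replicate 1 and Naive replicate 1. For these 3 genes the exact permutation p ranged from 0.821 (SEMA3D) to 1 (SEMA3C and SEMA3E).

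Among the transmembrane ligands, SEMA6D, which binds A-type plexins, had 4, 3 and 1 peaks in BDNF+Dox, 2, 0 and 1 in BDNF and 2, 1 and 2 in Naive. BDNF+Dox replicates 1 and 2 were the highest, and replicate 3 lay within the range of both other groups. The difference in means was 1.67 peaks over BDNF (exact two-sided permutation p = 0.3) and 1.00 over Naive (p = 0.5), where 0.1 is the smallest p that 3 libraries against 3 allow. SEMA5A, a semaphorin with thrombospondin repeats in its extracellular part, had 3, 2 and 0 peaks in BDNF+Dox, 0, 1 and 1 in BDNF and 1, 1 and 1 in Naive. BDNF+Dox held the highest library for this gene and shared the lowest with BDNF. Without BDNF+Dox replicate 3, which had no SEMA5A peak, the exact permutation p over the 3 groups was 0.0357 for SEMA5A, against 0.607 with it. The adjusted p stayed at or above 0.899. In that run 160 of 7111 genes tested had an unadjusted p under 0.05, against 70 of 7453 with all libraries. Of the 9 runs with 1 library left out, this was the only one in which any of the 10 genes did. SEMA6A, a ligand of PLXNA2 and PLXNA4, had a single peak, in BDNF replicate 3, and none in the BDNF+Dox and Naive libraries.

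Of the receptors, PLXNA4, which works with NRP1 in the response to SEMA3A, had 2, 4 and 0 peaks in BDNF+Dox, 1, 2 and 1 in BDNF and 2, 0 and 1 in Naive. The BDNF+Dox libraries again spanned the whole range. PLXNA2, a receptor of SEMA6A and, with neuropilins, of class 3 ligands, had 1, 0 and 1 peaks in BDNF+Dox, none in BDNF, and 0, 0 and 1 in Naive. NRP1, the co-receptor that binds SEMA3A as well as vascular endothelial growth factor, had 0, 1 and 1 peaks in BDNF+Dox, none in BDNF, and 1, 0 and 0 in Naive. PLXNA2 and NRP1 both lacked peaks in the BDNF group while 2 BDNF+Dox libraries had one. The difference was 0.667 peaks, with an exact two-sided permutation p of 0.4 each. Each of these genes held only 3 library peaks in all, and the share of genes with this pattern was not computed.

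**Figure D1:**
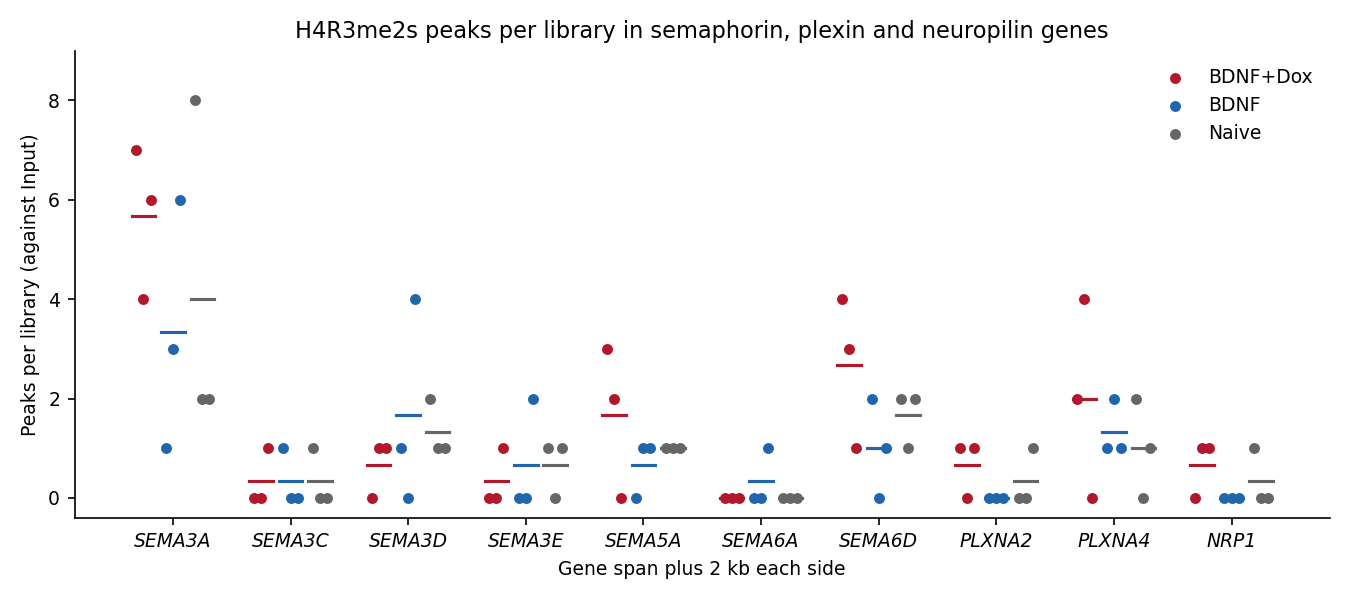
Each point is 1 library and shows its peaks called against the Input (vertical axis, number of peaks) in the widened span of each gene (horizontal axis), with short lines at the group means of 3 libraries, for BDNF+Dox, BDNF and Naive from left to right. SEMA3A reached 7, 6 and 8 peaks in single libraries of the groups, no other gene exceeded 4, and the groups overlapped in every gene.

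Over all 10 genes, 17, 15 and 12 peaks were found in the BDNF+Dox libraries, 6, 6 and 16 in the BDNF libraries and 18, 5 and 9 in the Naive libraries. The BDNF+Dox libraries were the most alike, and BDNF replicate 3 and Naive replicate 1 lay within or above their range. Group means were 14.7 ± 2.52 peaks for BDNF+Dox, 9.33 ± 5.77 for BDNF and 10.7 ± 6.66 for Naive (SD, n = 3 each). Per Mb these were 4.27, 2.72 and 3.11 peaks in BDNF+Dox, BDNF and Naive, beside 2.63, 1.79 and 2.52 in all protein-coding genes, so the order of the groups was that of genes at large. As a share of the peaks in each list, the genes took 0.187 ± 0.0299% of BDNF+Dox lists, 0.154 ± 0.0701% of BDNF lists and 0.115 ± 0.0314% of Naive lists. The lead of BDNF+Dox over BDNF, 5.33 peaks per library, varied with the peaks kept. When only as many of the strongest peaks were kept per library as the shortest list holds, BDNF+Dox minus BDNF was -0.333 peaks and BDNF+Dox minus Naive 1.67, against 4.00 with whole lists. Such lists are equal in length but also hold stronger peaks, and the parts of length and strength were not tested. At −log10 p of 3 or more, BDNF+Dox minus BDNF was 3.33 peaks and BDNF+Dox minus Naive 4.33, and at 5 or more they were 0.667 and -0.333. BDNF minus Naive was 2.00 peaks on equal lists, 1 at −log10 p of 3 or more, -1 at 5 or more and -1.33 on whole lists, and 2.33 on whole lists without Naive replicate 1.

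The exact permutation test of peak number over the 3 groups was run on the 7453 protein-coding genes with a peak in at least 1 library. After Benjamini-Hochberg adjustment it called 0 genes at a p under 0.05, and 70 genes (0.939%, or 1.66% of those of similar span) had an unadjusted p under 0.05, with none of the 10 genes among them. Their unadjusted p ran from 0.289 (SEMA6D) to 1, and the smallest p that the 1680 assignments allow is 0.00357. Adjustment over 7453 genes could call a gene only if a great many reached that smallest p together. The lack of calls therefore does not show that the groups are alike.

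SEMA3A was the only one of the genes with a peak in all 9 libraries, which held for 0.561% of all protein-coding genes and for 28 of the 2206 of similar span (1.27%). A peak in all 3 BDNF+Dox libraries was found for SEMA6D and SEMA3A (2.72% of all protein-coding genes, 15.1% of those of similar span). All 3 BDNF libraries had one in SEMA3A and PLXNA4 (1.58% and 7.89%). All 3 Naive libraries had one in SEMA6D, SEMA5A, SEMA3A and SEMA3D (2.44% and 13.4%). No gene of the 10 had a peak in all 3 libraries of one group and in none of another, a pattern shown for some pair of groups by 200 of all protein-coding genes (1%) and by 5.58% of those of similar span. The ranges of peak numbers of the groups overlapped in all 10 genes, and were separate for some pair of groups in 1.37% of all protein-coding genes and 7.34% of those of similar span.

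Per length, SEMA3A stood highest, at 8.01 peaks per Mb per library over the 9 libraries. Of the 2206 genes of similar span, 6 (0.272%) had a higher density. SEMA3D followed with 4.72 peaks per Mb per library, and 250 genes of similar span (11.3%) lay above it. SEMA6D had 2.99, PLXNA4 2.73, SEMA5A 2.16, NRP1 2.07, SEMA3E 1.92, SEMA3C 1.81, PLXNA2 1.47 and SEMA6A 0.821 peaks per Mb per library. These 8 genes lay in the broad middle or the lower part of the genes of similar span, 34.1% of which were denser than SEMA6D and 80.1% denser than SEMA6A. The 10 genes together had 3.36 peaks per Mb per library, 2.50 without SEMA3A, beside 2.31 in all protein-coding genes and 2.53 in those of similar span.

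By group, SEMA3A had 10.5 ± 2.82 peaks per Mb in BDNF+Dox libraries, 6.16 ± 4.65 in BDNF libraries and 7.39 ± 6.40 in Naive libraries (SD, n = 3 each), beside 2.91, 1.94 and 2.74 in the genes of similar span in the same 3 groups. Its place among the genes of similar span depended on the peaks kept. With peaks at −log10 p of 3 or more it had 5.96 peaks per Mb per library and 19 denser genes of similar span, and with lists of equal length 4.52 and 41 denser genes. Leaving out 1 library at a time gave 7.16 to 8.78 peaks per Mb per library, with 5 to 15 denser genes.

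**Figure D2:**
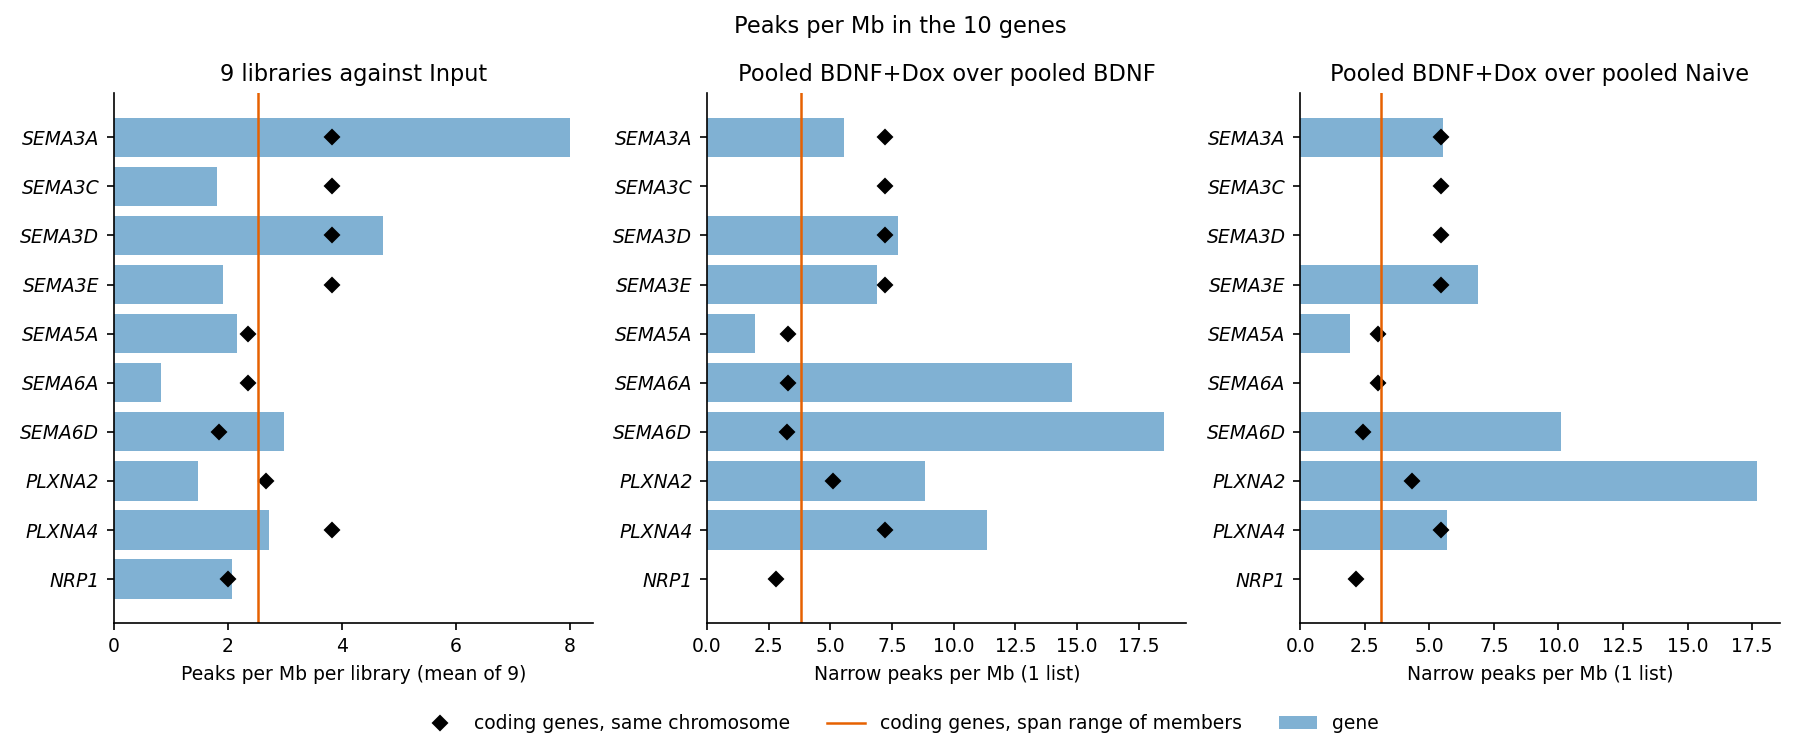
Bars give the peaks per Mb (horizontal axes) of each gene (rows) in the 9 libraries called against the Input, as the mean per library, and in the narrow lists of merged BDNF+Dox called over merged BDNF and over merged Naive. Diamonds give all protein-coding genes of the same chromosome and the vertical line the protein-coding genes of similar span. SEMA3A leads at 8.01 in the libraries, while SEMA6D leads at 18.5 over BDNF and PLXNA2 at 17.7 over Naive.

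SEMA3A lies on chromosome 7 in a stretch that also holds SEMA3C, SEMA3E and SEMA3D, with HGF, CACNA2D1 and PCLO as the other protein-coding genes between them. Chromosome 7 as a whole was rich in peaks, with 3.83 peaks per Mb per library in its protein-coding genes, against 2.67 on chromosome 1 (PLXNA2), 2.36 on chromosome 5 (SEMA5A, SEMA6A), 2.01 on chromosome 10 (NRP1) and 1.84 on chromosome 15 (SEMA6D). The 5 genes on chromosome 7 had 4.38 peaks per Mb per library and the 5 others 2.25. Why the chromosomes differed was not tested. Within the stretch, the level changed along the chromosome. Gene spans without flanks had 1.85 (SEMA3C), 1.94 (SEMA3E), 8.07 (SEMA3A) and 4.80 (SEMA3D) peaks per Mb per library. The DNA between SEMA3C and SEMA3E had 4.46, that between SEMA3E and SEMA3A 5.44, that between SEMA3A and SEMA3D 5.52, and the 1 Mb beyond SEMA3D 6.67. SEMA3A was thus denser than the DNA on either side of it, and SEMA3C and SEMA3E were sparser than theirs. The end beyond SEMA3D was dense as well. The outermost bin of 250 kb, most of which lies past the 1 Mb beyond SEMA3D, held 24 peaks. That was more than the 21 in the densest bin of SEMA3A. At the other end, the 1 Mb before SEMA3C had 4.78 peaks per Mb per library.

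**Figure D3:**
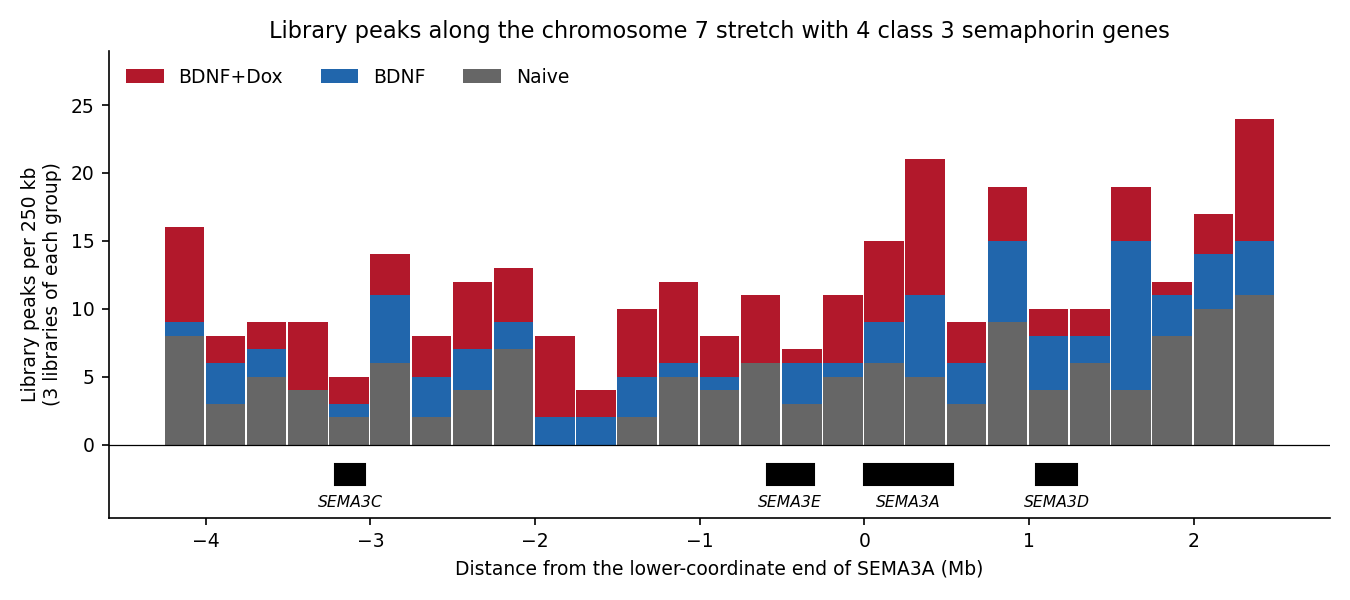
Stacked bars count the library peaks called against the Input per 250 kb (vertical axis) along chromosome 7, by distance from the lower-coordinate end of SEMA3A (horizontal axis, Mb), with BDNF+Dox, BDNF and Naive (3 libraries each) from top to bottom of each bar. Black boxes mark the 4 semaphorin genes. The bins wholly inside SEMA3A hold 15 and 21 peaks, and the next bin, which the gene fills only in part, holds 9. A bin beyond SEMA3D holds 24.

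The positions of the peaks were seldom shared between libraries. Merged where they overlapped, the 104 peaks formed 99 regions, of which 5 (5.05%) held peaks of 2 libraries and none of 3 or more. Over the genome 1558 of 65632 regions (2.37%) held peaks of 2 or more libraries, and the most shared region held 7. The 5 regions lay in SEMA6D (chr15:47284008-47284418, Naive replicates 2 and 3), at 2 places in SEMA3A (chr7:84056160-84056551, Naive replicates 2 and 3, and chr7:84069618-84070026, BDNF+Dox replicate 3 and Naive replicate 1), in SEMA3E (chr7:83456033-83456306, BDNF replicate 3 and Naive replicate 3) and in PLXNA4 (chr7:132585825-132586146, BDNF+Dox replicate 2 and Naive replicate 1). No region was shared by libraries of BDNF+Dox alone.

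When peaks at most 1 kb apart were joined, a choice made after the data were seen, 8 of 92 groups of peaks (8.7%) held 2 or more libraries, against 6.13% over the genome, and 2 (2.17%) held 3, against 0.509%. One of these lay in SEMA6D (chr15:47284008-47284755), where a BDNF replicate 3 peak sat beside those of Naive replicates 2 and 3. The other lay in SEMA3A (chr7:84069282-84070026), where BDNF+Dox replicates 1 and 3 met Naive replicate 1. In SEMA3D, 3 peaks of BDNF replicates 1 and 3 lay within 1077 bp (chr7:85140911-85141987), and one of them was the strongest library peak of the gene.

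**Figure D4:**
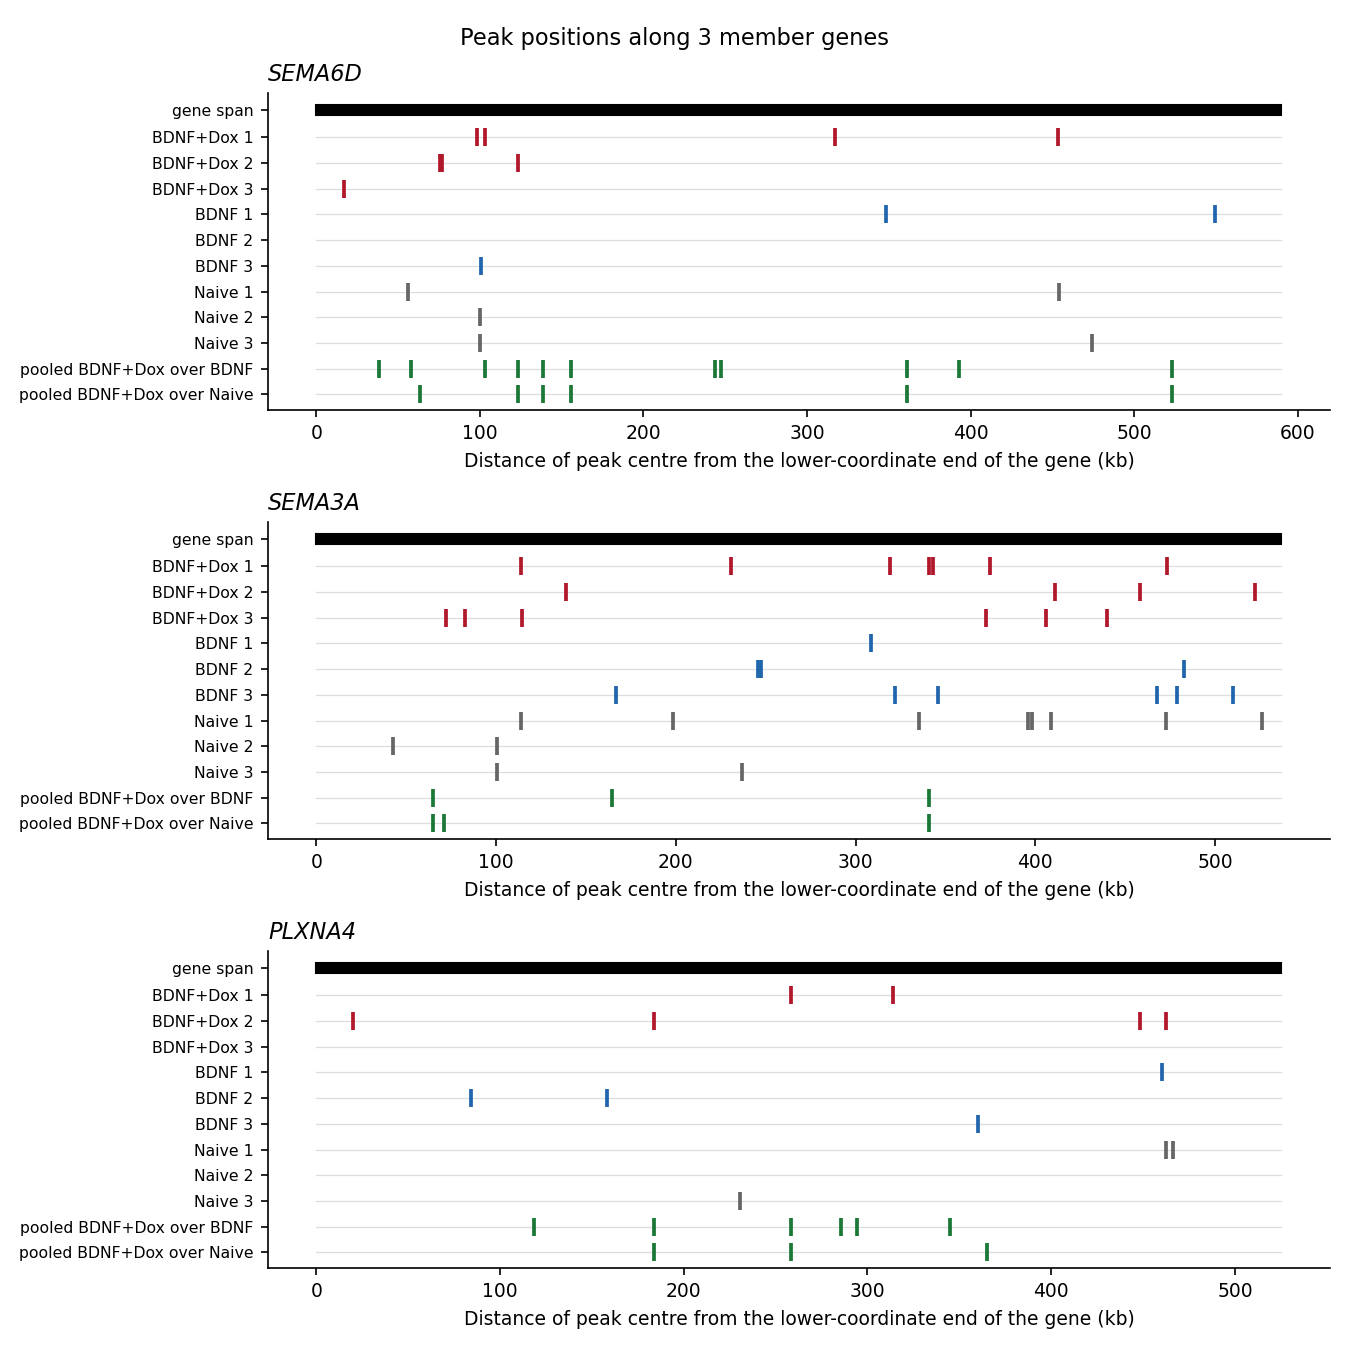
Ticks mark the centre of each narrow peak along SEMA6D, SEMA3A and PLXNA4, by distance from the lower-coordinate end of the gene (horizontal axis, kb), with 1 row per library and 1 per merged comparison and a black bar for the gene span. Peaks are spread over the genes, and few ticks line up between libraries.

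Nearly all library peaks lay inside the genes, more than 2 kb from their ends. Of the 104 library peaks, 2 fell within 2 kb of a gene end. These end zones are a small part of the DNA counted, so evenly spread peaks would seldom fall there. Whether the ends held fewer peaks than their length would give was not tested. One of the 2 peaks was the NRP1 peak of Naive replicate 1 (chr10:33177429-33177585), which overlaps the lower-coordinate end of the gene. The other was the SEMA3D peak of BDNF replicate 3 (chr7:84995726-84995910). One library peak, in PLXNA4, also lay in another annotated gene, PLXNA4-AS1, and the files do not use strand. In the merged narrow lists no peak of these genes lay at a gene end.

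The peaks themselves were low. The 104 library peaks had a median length of 182 bp and rested on 6 to 12 reads at the summit, with a median of 7.5 (pileup divided by the scaling of each library gave whole reads within 0.05 for all 104). In the authors' deposited lists their −log10 p ran from 2.26 to 5.95, with a median of 3.66, beside 3.65 for all 67753 library peaks. None had a q of 0.05 or less in the authors' deposited lists, and 90 (86.5%) had a q of 1, beside 269 peaks at a q of 0.05 or less and 83.3% at a q of 1 among all 67753. The strongest was a SEMA6D peak of Naive replicate 1 (chr15:47240234-47240433), with 9 reads, and the strongest of SEMA3A came from BDNF+Dox replicate 3 (chr7:84395705-84395858), with 12 reads and a −log10 p of 5.86 in the authors' deposited list. Neither overlapped a peak of another library. The strongest library peak of SEMA5A (chr5:9216220-9216429) and that of SEMA3C (chr7:80801937-80802112) came from Naive replicate 1, each with 9 reads. That of PLXNA2 (chr1:208076663-208076857) came from Naive replicate 3 with 8 reads, that of SEMA3D (chr7:85141207-85141470) from BDNF replicate 3 with 9 reads, and the single SEMA6A peak (chr5:116568911-116569224) held 6 reads. For PLXNA4 the strongest came from BDNF+Dox replicate 2 (chr7:132307211-132307418, 8 reads), and for NRP1 it was the peak at the gene end described above.

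**Figure D5:**
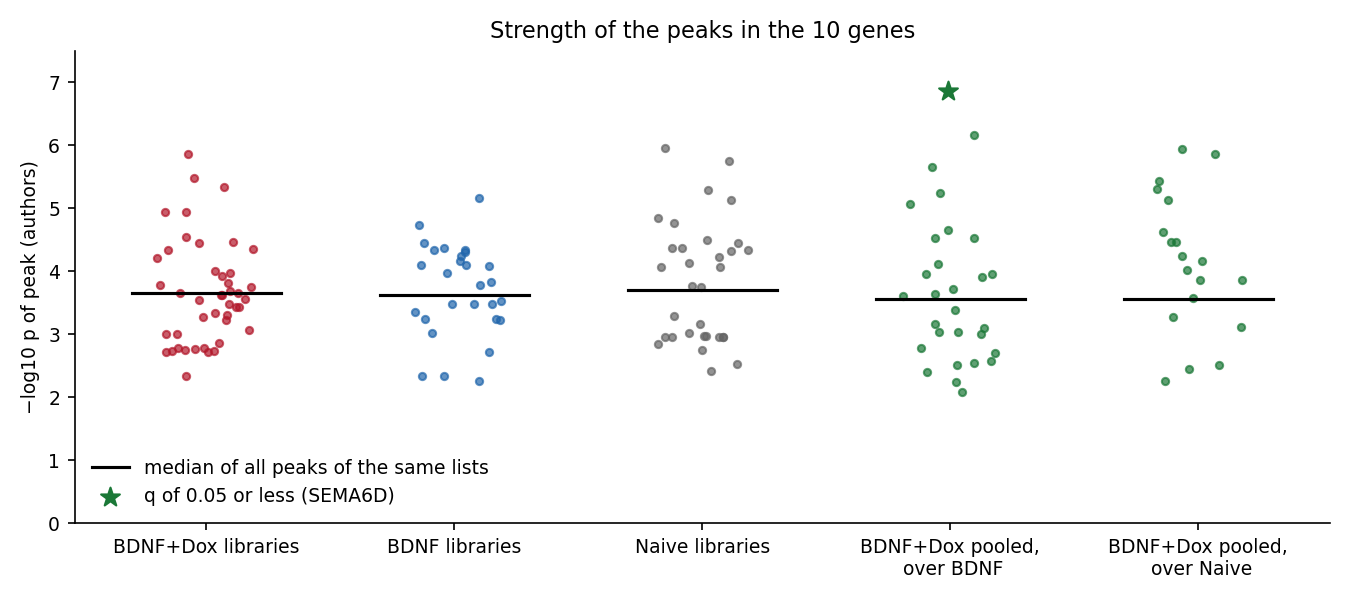
Each point is 1 peak in the 10 genes, placed by the −log10 p that the authors' lists give (vertical axis), for the libraries of each group and for merged BDNF+Dox called over merged BDNF and over merged Naive (horizontal axis). Lines give the median of all peaks in the same lists, and the star is the SEMA6D peak with a q of 0.0455. Library peaks stop at 5.95, and their bulk surrounds the lines.

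Peaks were also called by the authors on merged reads, BDNF+Dox directly over BDNF, which asks where induction of α-synuclein went with more signal. Such a list has no replicates. In the narrow list, 29 peaks fell in 8 of the 10 genes, all but SEMA3C and NRP1. A peak was listed for 14.7% of all protein-coding genes and for 54.4% of those of similar span. SEMA6D held 11 of the 29, PLXNA4 6, SEMA3A 3, SEMA3D, SEMA3E, SEMA6A and PLXNA2 2 each, and SEMA5A 1. For SEMA6D this made 18.5 peaks per Mb, with 30 of 2206 genes of similar span (1.36%) above it, and 13.5 peaks per Mb with 55 genes above it at −log10 p of 3 or more. PLXNA4 reached 11.3 peaks per Mb, with 8.2% of those genes above it, and SEMA6A 14.8 on only 2 peaks. SEMA3A had 5.55 peaks per Mb here, with 29.7% of the genes of similar span above it, beside 3.81 in those genes together and 7.23 in the protein-coding genes of chromosome 7.

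The strongest SEMA6D peak (chr15:47322727-47322889) had a fold of 3.93 and a q of 0.0455 in the authors' deposited table, on 17 reads at the summit. It was the only peak of the 10 genes at a q of 0.05 or less, a level reached by 0.12% of all protein-coding genes and by 0.453% of those of similar span. No library peak of any group overlapped it. The strongest PLXNA4 peak (chr7:132307256-132307418) had a fold of 3.71 and a q of 0.136 in the authors' deposited table, and a peak of BDNF+Dox replicate 2 (chr7:132307211-132307418) covered the same place. For SEMA3A the strongest (chr7:84296601-84296798) had a fold of 2.79 and a q of 0.716 in the authors' deposited table and overlapped a peak of BDNF+Dox replicate 1. SEMA3D had its strongest (chr7:85017237-85017406) at a fold of 3.06 and a q of 0.486 in the authors' deposited table. The strongest of SEMA3E (chr7:83454951-83455137), SEMA5A (chr5:9269458-9269669), SEMA6A (chr5:116473485-116473697) and PLXNA2 (chr1:208237014-208237180) all had a q of 1 in the authors' deposited table. Of all 29 peaks, 5 overlapped a peak of 1 BDNF+Dox library, none a peak of 2 or more of them, and none a BDNF or Naive library peak.

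Called over merged Naive, which sets differentiated cells with induced α-synuclein against undifferentiated cells, the narrow list held 19 peaks in 6 of the 10 genes (13.1% of all protein-coding genes, 46.1% of those of similar span). SEMA6D held 6, PLXNA2 4, SEMA3A and PLXNA4 3 each, SEMA3E 2 and SEMA5A 1. PLXNA2, with 1.47 peaks per Mb per library against the Input, reached 17.7 per Mb here, and 25 genes of similar span (1.13%) lay above it, or 41 at −log10 p of 3 or more with 13.3 per Mb. The protein-coding genes of chromosome 1 held 4.33 peaks per Mb in this list. The strongest PLXNA2 peak (chr1:208087606-208087777) had a fold of 3.39 and a q of 0.348 in the authors' deposited table. No peak of the genes had a q of 0.05 or less, which 0.19% of all protein-coding genes and 0.725% of those of similar span had. The strongest SEMA6D peak (chr15:47322675-47322854) had a fold of 3.52 and a q of 0.164 in the authors' deposited table. The strongest SEMA3A peak (chr7:84026535-84026704) had a fold of 3.26 and a q of 0.192 in the authors' deposited table, and no library peak overlapped it. For PLXNA4 the strongest (chr7:132307240-132307416) lay at the same place as over BDNF, with a q of 0.429 in the authors' deposited table, and for SEMA5A the single peak had the same coordinates as over BDNF and a q of 1. In SEMA3E, the strongest (chr7:83403490-83403777) coincided with that gene's strongest library peak, from BDNF+Dox replicate 3 (chr7:83403474-83403819). A BDNF+Dox library peak overlapped 6 of the 19, and no BDNF or Naive library peak did.

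Both lists use the same merged BDNF+Dox reads, so a place shared by them is no independent repeat. Side by side, SEMA6D had 11 peaks over BDNF and 6 over Naive, PLXNA4 6 and 3, PLXNA2 2 and 4, and SEMA3A 3 and 3. No call of BDNF over Naive was analysed here.

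Broad regions gave larger counts, 68 over BDNF in all 10 genes (25.5% of all protein-coding genes, 78.6% of those of similar span) and 44 over Naive in 8 of 10 (23.7% and 74.1%). PLXNA2 was the densest of the genes in both, with 10 regions over BDNF (44.2 per Mb, 9 of 2206 genes above it) and 8 over Naive (35.4 per Mb, 16 above it). The protein-coding genes of chromosome 1 held 12.7 regions per Mb over BDNF and 11.1 over Naive. PLXNA4 had 14 and 12 regions, SEMA6D 15 and 8 and SEMA3A 12 and 8. NRP1 had 1 region over BDNF and none over Naive. In the authors' deposited lists none of these regions had a q of 0.05 or less.

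The 10 genes are long for their families, with a median span of 270 kb against 30.4 kb in the remaining family members, which held few peaks. Of 21 further semaphorin, plexin and neuropilin genes, 3 had a library peak, 4 peaks in all. A library peak was found for 37.3% of all protein-coding genes, and no share was computed for genes as short as these. NRP2, the other neuropilin, had 1 in BDNF+Dox replicate 2 and 1 in Naive replicate 1, SEMA4D 1 in Naive replicate 3 and SEMA4F 1 in BDNF replicate 3. The 10 genes had 3.36 peaks per Mb per library, the 21 further genes 0.407 and all protein-coding genes 2.31. The 10 genes and the 21 were parted with earlier results of these data known. The choice alone may therefore set them apart, and the contrast was not tested. SEMA4A alone of the 21 had a narrow peak in the merged comparisons, 1 over BDNF and 1 over Naive. Such a peak was listed for 14.7% and 13.1% of all protein-coding genes.

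Of 32 co-receptor and signalling genes of the pathway, 16 had a library peak, where 37.3% of all protein-coding genes had one. They held 70 peaks in all or 2.16 per Mb per library, beside 2.31 in all protein-coding genes. NRCAM, a cell adhesion molecule that associates with NRP2 in mice, led with 6, 2 and 3 peaks in BDNF+Dox, 1, 2 and 0 in BDNF and 2, 0 and 1 in Naive. It was the only one of the 32 with a peak in all 3 BDNF+Dox libraries, beside 2.72% of all protein-coding genes. It was also the only one with a merged narrow peak at a q of 0.05 or less in the authors' deposited lists. This held both over BDNF and over Naive, beside 0.12% and 0.19% of all protein-coding genes. MET, a receptor tyrosine kinase that can pair with B-type plexins, had 8 peaks. It was the only one of the 32 with a peak in all 3 Naive libraries, beside 2.44% of all protein-coding genes. CHL1, an adhesion molecule that acts with NRP1 in the response of mouse neurons to SEMA3A, had 7 peaks. Merged narrow peaks lay in 10 of the 32 genes over BDNF, beside 14.7% of all protein-coding genes, and in 10 over Naive, beside 13.1%. The 32 genes had a median span of 75.9 kb, and no share was computed for genes of their length. Per Mb they held 3.61 merged narrow peaks over BDNF and 3.61 over Naive. All protein-coding genes held 3.52 and 2.95.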

How the data were processed

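The submitters' processing notes name GRCh38, cutadapt 1.1 and Trimmomatic 0.32 for trimming, Bowtie for alignment (its version is not given in the sources used here) and MACS2 2.2.7.1 for peaks. Narrow peaks of a library are relative to the Input, at a p cutoff of 0.01, with 1 read kept per position, scaling of the larger dataset to the smaller, and local windows of 1000 and 10000 bp, per the file headers. Merged BDNF+Dox reads were set against merged BDNF and merged Naive reads in 2 further calls, narrow and broad, per the file headers. Each deposited row gives the authors' MACS2 values, which are the peak's length in bp, its pileup signal, −log10 of p and of q, and its fold enrichment (a ratio to local background). The deposited q values were taken as they stand, although the file headers announce none.

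Gene spans and start-site windows came from RefSeq. Strand and exons were not used. For each gene, the F ratio of peaks per library over the 3 groups was tested by exact permutation and adjusted by Benjamini-Hochberg over all genes tested, and pairs of groups by exact two-sided permutation, with Python 3.11.15, numpy 2.4.6 and pandas 2.3.3. The code was checked on simulated data with planted differences far larger than those seen in the 10 genes. That check does not show whether small differences would be found. No p was computed for a sum over the 10 genes. The 10 genes and both gene lists were chosen with earlier results of these data known. Named in each gene are the strongest peak of each merged narrow list by q (by p where q was tied), regions with peaks of 2 or more libraries and the strongest library peak. Of the other lists, genes are named that have a merged peak at q of 0.05 or less, peaks in all 3 libraries of a group, or a place among the 3 with the most library peaks, and SEMA4A was named after its values were seen. Alternatives were stricter peak thresholds, flanks of 0 and 10 kb, summits in place of overlap, lists of equal length, covered length, a replicate block and leaving out each library.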

Additional observations from a re-analysis of the deposited data

How the results depend on the processing

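No gene was called under any alternative, and the lowest adjusted p of the 10 genes was 0.899. Here too adjustment could call a gene only if many genes shared the smallest possible p. The lack of calls is therefore no sign of a stable result. At unadjusted p, 92 to 180 genes passed without 1 library and 5 to 120 under the other settings. With the replicate number as a block, 0 genes were called and 5 passed at unadjusted p. Correlations of deviations ran from -0.0491 to 0.134 between same-numbered libraries and from -0.141 to 0.1 between others. The best match of 5 of 9 libraries had their own number, but only 1 of 9 same-numbered correlations was over 0.1, so the numbers were not taken to pair the libraries.

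At −log10 p of 3 or more, 2 genes had a peak in every Naive library and 2 regions were shared by libraries (4 and 5 with all peaks). At 5 or more, no gene had a peak in every BDNF+Dox, BDNF or Naive library (0, 0 and 0), and 5 merged peaks were left over BDNF in 3 genes and 5 over Naive. With lists of equal length, 2 genes had a peak in every Naive library, and PLXNA4 had one in every BDNF and no Naive library. The exact permutation p of PLXNA4 over the 3 groups was 0.464 on those lists. The share of protein-coding genes separated between any pair of groups was computed on whole lists only. There it was 1% of all and 5.58% of those of similar span. Broad regions numbered 68 over BDNF and 44 over Naive. At q of 0.05 or less, 1 peak in 1 gene was left over BDNF and 0 peaks in 0 genes over Naive. Shared regions numbered 2 with summits within 100 bp and 8 with peaks at most 1 kb apart, an alternative chosen, like those on density, after seeing the data.

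Leaving out 1 library gave 3.67 to 8.67 peaks for BDNF+Dox minus BDNF, 1.17 to 7.67 for BDNF+Dox minus Naive and -4.67 to 2.33 for BDNF minus Naive. The genes with a peak in every library of a group numbered 2 to 4 for BDNF+Dox, 2 to 4 for BDNF and 4 to 6 for Naive. Those with a peak in every library of one group and none of another numbered 0 to 1. They were NRP1 without BDNF+Dox replicate 1 and PLXNA2 without BDNF+Dox replicate 2, both in BDNF+Dox and not in BDNF. In each case the library left out was the BDNF+Dox library without a peak in that gene. The exact permutation p over the 3 groups was 0.143 for each gene in its run. The share of all protein-coding genes with this pattern was not computed for these runs. The cause of these shifts was not tested. Library peaks of these genes rest on 6 to 12 reads, which limits how firmly a single one can be placed.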
